A study of Homo sapiens with 6 samples.

Results

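Alcohol, aldehyde and drug metabolism enzymes were compared between H69M and H69, a pair of human small cell lung cancer lines. The enzymes were taken by platform symbol: ADH, ALDH or AKR followed by a number, CYP followed by a number and a letter, GSTA, GSTM, GSTP, GSTT, GSTO, GSTK or MGST followed by a number, and UGT1 or UGT2. Of the 18404 genes measured by a probe set with 1 gene symbol, 116 met this rule. No measured value entered the rule, but the enzyme families were chosen with earlier results of these data known. They fell into 7 alcohol dehydrogenases, 19 aldehyde dehydrogenases, 12 aldo-keto reductases, 53 cytochrome P450 genes, 19 glutathione S-transferases (16 cytosolic or mitochondrial and 3 microsomal) and 6 UGT2 glucuronosyltransferases. No UGT1 gene had a probe set with a single symbol, and 107 of the 116 were annotated as protein-coding.

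Total RNA of each line was hybridised to 3 Affymetrix whole-transcript arrays. H69 is a line known for neuroendocrine features and growth in floating clumps, and H69M is labelled as small cell lung cancer too. The labels give no treatment, no genetic change and no account of how H69M was obtained, and each group is a single cell line. They do not say that the 3 arrays of a line came from separate cultures, so the p-values rest on a spread among arrays that could be technical. Values are log2 expression values made by RMA, which gives no detection call and compresses folds from dim levels. Differences are H69M minus H69 on that scale, called higher or lower at a Benjamini-Hochberg adjusted p threshold of 0.05 in a limma fit over all 18404 genes.

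Cells break down alcohols and reactive compounds in steps. Alcohol dehydrogenases oxidise alcohols to aldehydes, aldehyde dehydrogenases oxidise these to acids, and aldo-keto reductases reduce aldehydes and ketones back to alcohols. Cytochrome P450 enzymes insert oxygen into drugs, steroids, sterols, vitamin D and fatty acids, and glutathione S-transferases and glucuronosyltransferases couple the products to glutathione or glucuronic acid for export. Many of these enzymes are best known from liver and gut, and the airway carries its own set.

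The labelled cell type was checked first. Of 11 measured neuroendocrine markers, 9 were lower in H69M and 0 were higher (limma adjusted p; 9 passed an unadjusted p of 0.05), and the mean over the list ran from 9.99 to 10.02 on the H69 arrays and from 9.14 to 9.45 on the H69M arrays. All 10 mesenchymal and fibroblast markers were higher in H69M, with list means of 5.60 to 5.66 against 10.18 to 10.59. The list of 14 hepatocyte markers averaged 4.62 to 4.68 in H69 and 4.50 to 4.64 in H69M, with 0 called by limma (3 at an unadjusted p of 0.05), and 11 of its genes were below the 25th percentile of level over all genes. Club and airway secretory markers averaged 5.67 to 5.78 and 5.52 to 5.68 (0 of 8 higher, 2 lower), enterocyte markers 5.64 to 5.73 and 5.34 to 5.45 (1 of 7 higher, 2 lower), and leukocyte markers 4.84 to 4.92 and, on every H69M array, 4.77 (1 of 5 higher, 3 lower). No marker is at 0 on this scale. The neuroendocrine and mesenchymal lists moved with the line, as did every enzyme called below, and their part in those results was not tested. In RNA from whole cultures, fewer cells of a type and less RNA per cell cannot be told apart.

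The median of an array ranged from 6.43 to 6.48, and arrays correlated across genes with r of 0.995 to 0.998 within a line and 0.938 to 0.950 between lines. H69M replicate 1 was the H69M array nearest to the H69 mean in 26 of the 43 enzyme genes that passed the threshold (60.5%), against 55.0% of the 8140 genes that passed in all. Without it, 17 enzyme genes were higher and 26 lower.

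A smaller share of the enzyme genes than of all genes passed the test, while single members such as ADH1C and CYP1B1 differed by more than 4 in log2. Of the 116 genes, 18 were higher in H69M, 25 were lower and 73 were on neither side (limma, Benjamini-Hochberg adjusted p threshold of 0.05). The called share was 37.1%, beside 44.2% of all genes. It split into 15.5% higher and 21.6% lower, beside 21.0% and 23.2% of all genes. At least 2-fold differences were found in 5 of the 116 genes higher and 6 of the 116 lower. Over all 18404 genes they were found in 1024 higher and 500 lower (5.56% and 2.72%, or 8.28% together). H69 and H69M arrays were fully separate in 47 of the 116 genes (40.5%), beside 55.8% of all genes. The median log2 fold change was -0.055 for the enzyme genes and -0.041 for all genes, and the median size of change was 0.152 and 0.186.

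How bright the probe set was went with how often a gene was called. Mean level over the 6 arrays was below the 25th percentile of all genes (5.58) for 62 of the 116 enzyme genes, and 6 of those 62 passed (9.68%, beside 20.3% of all genes in that class). Of the 30 enzyme genes between that level and the median (7.16), 20 passed (66.7%, beside 43.2%), and of the 24 at or above the median 17 passed (70.8%, beside 56.7%). The dim class held all 13 CYP4 genes, all 3 CYP3 genes and all 6 UGT2 genes.

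**Figure D1:**
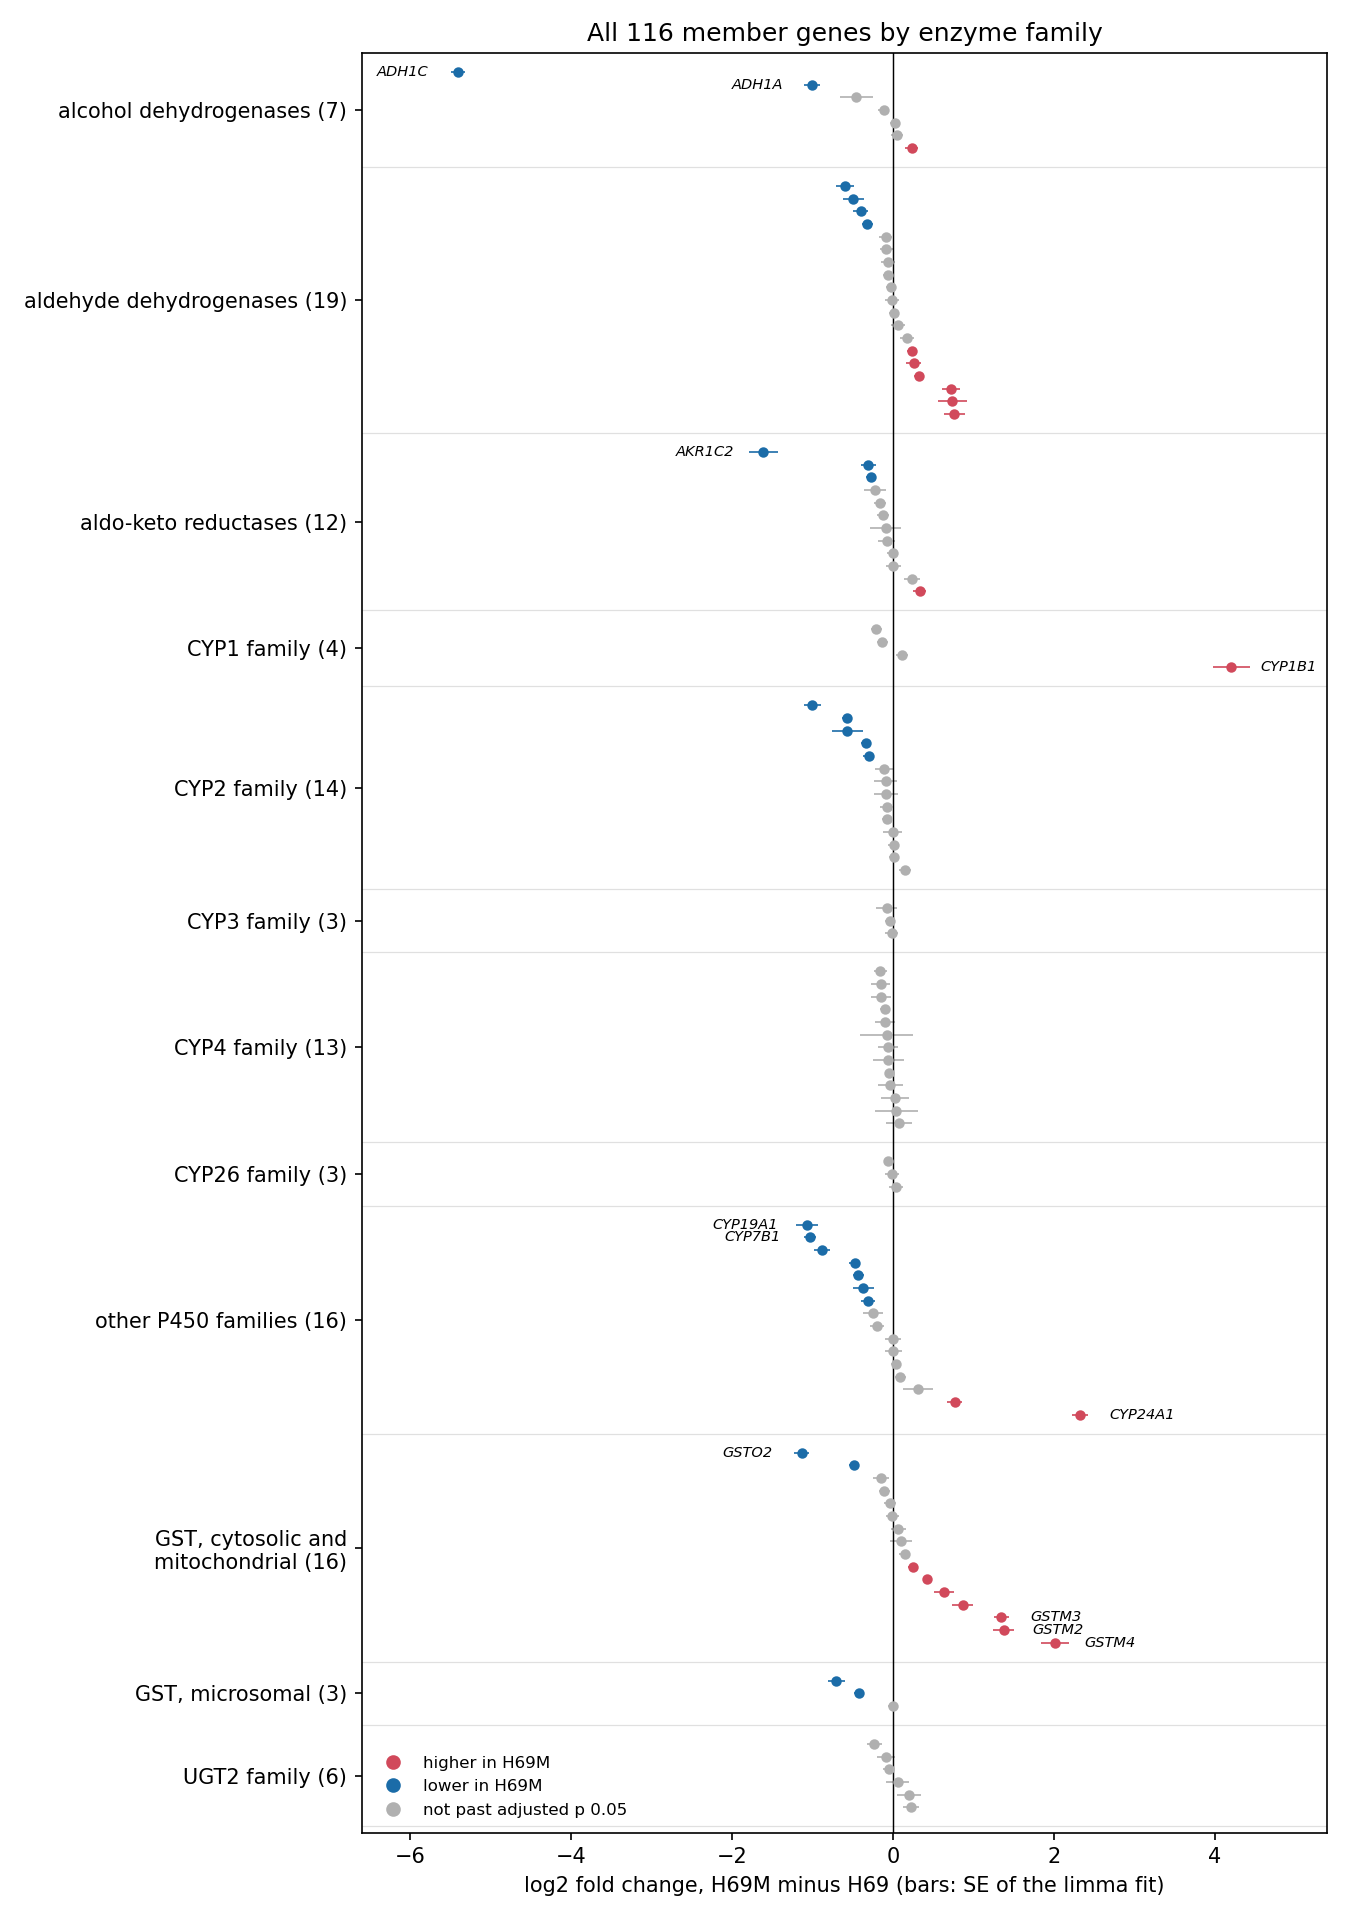
Log2 fold change of each of the 116 enzyme genes, H69M minus H69, grouped by family with the number of genes in brackets; bars are standard errors of the limma fit, and colours mark genes higher, lower or not past an adjusted p of 0.05. The 11 genes at least 2-fold different carry their names, from ADH1C at -5.41 to CYP1B1 at 4.21, and the CYP3, CYP4, CYP26 and UGT2 genes lie near 0.

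**Figure D2:**
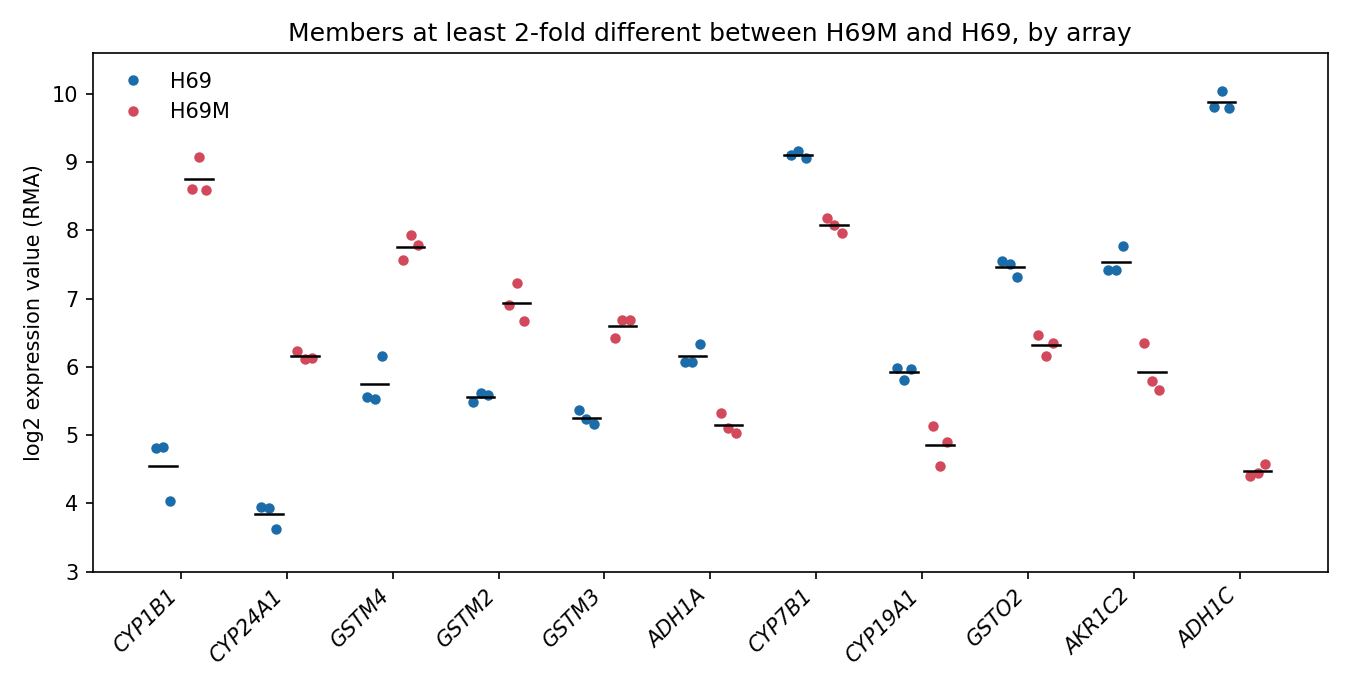
Log2 expression value on each of the 6 arrays for the 11 enzyme genes at least 2-fold different; points are arrays and lines are means of 3. The H69 and H69M arrays are separate in every one of the 11 genes, by the widest margin in ADH1C, beside 55.8% of all genes. The 11 were chosen by adjusted p and size of change on these same arrays, so their separation adds no further evidence.

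Among the alcohol dehydrogenases, ADH1C was far lower in H69M while ADH5 was slightly higher. ADH1C, a class I enzyme that oxidises ethanol and retinol (probe set 8101893), read 9.81, 10.04 and 9.80 on the H69 arrays and 4.40, 4.45 and 4.58 on the H69M arrays. The H69 arrays were all high and the H69M arrays all low, with no overlap. The line means were 9.88 ± 0.13 and 4.48 ± 0.093 (SD, n = 3), a log2 fold change of -5.41 ± 0.085 (SE) or a 42.4-fold lower value in H69M (limma, Benjamini-Hochberg adjusted p = 1.45e-08). It had the lowest log2 fold change of all 18404 genes.

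ADH1A, a class I enzyme from the same cluster (probe set 8101874), read 6.06, 6.07 and 6.33 in H69 and 5.32, 5.10 and 5.03 in H69M. Its arrays did not overlap either, although the gap was much smaller, with a log2 fold change of -1.003 ± 0.10 (limma adjusted p = 0.00013). The change was -0.91 without H69 replicate 3, -0.98 without H69M replicate 2 and -0.94 without H69M replicate 3. It was also -0.97 with median-centred arrays, -0.96 with quantile normalization applied again and -0.9975 with array weights, so its place among the 2-fold genes depended on single arrays and on the scaling. ADH1B, the third class I gene, read 3.67, 4.55 and 4.20 in H69 and 3.54, 3.62 and 3.90 in H69M. These arrays overlapped, and the difference was -0.45 (limma adjusted p = 0.113), although without H69 replicate 1 it was -0.69 with a limma adjusted p = 0.00884.

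ADH5, the class III enzyme that handles formaldehyde bound to glutathione, had a log2 fold change of 0.23 ± 0.081 with a limma adjusted p = 0.0484. It no longer passed without replicate 2 (0.116) or 3 (0.142) of H69 or replicate 2 (0.147) or 3 (0.098) of H69M, or with the probe set of largest variance for each gene (0.0501). ADH4 (0.051), ADH6 (0.026) and ADH7 (-0.11) were dim and did not pass; they were named after their values were seen. The class I genes are near-identical in sequence, so their probe sets may share hybridisation, and the split between ADH1A, ADH1B and ADH1C is uncertain to that extent.

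All 7 genes lie in a row on human chromosome 4, and the genes on either side of the row differed by at most 0.36 in size. Of the 3 nearest measured protein-coding genes on each side, 0 of 6 were higher and 3 were lower in H69M (limma, 3 at an unadjusted p of 0.05). Their log2 fold changes ran from -0.36 to 0.066, and 21.0% of all genes were higher and 23.2% lower. Inside the row, the order from one end was ADH5, ADH4, ADH6, ADH1A, ADH1B, ADH1C and ADH7, so that ADH1C at -5.41 stood between ADH1B at -0.45 and ADH7 at -0.11.

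**Figure D3:**
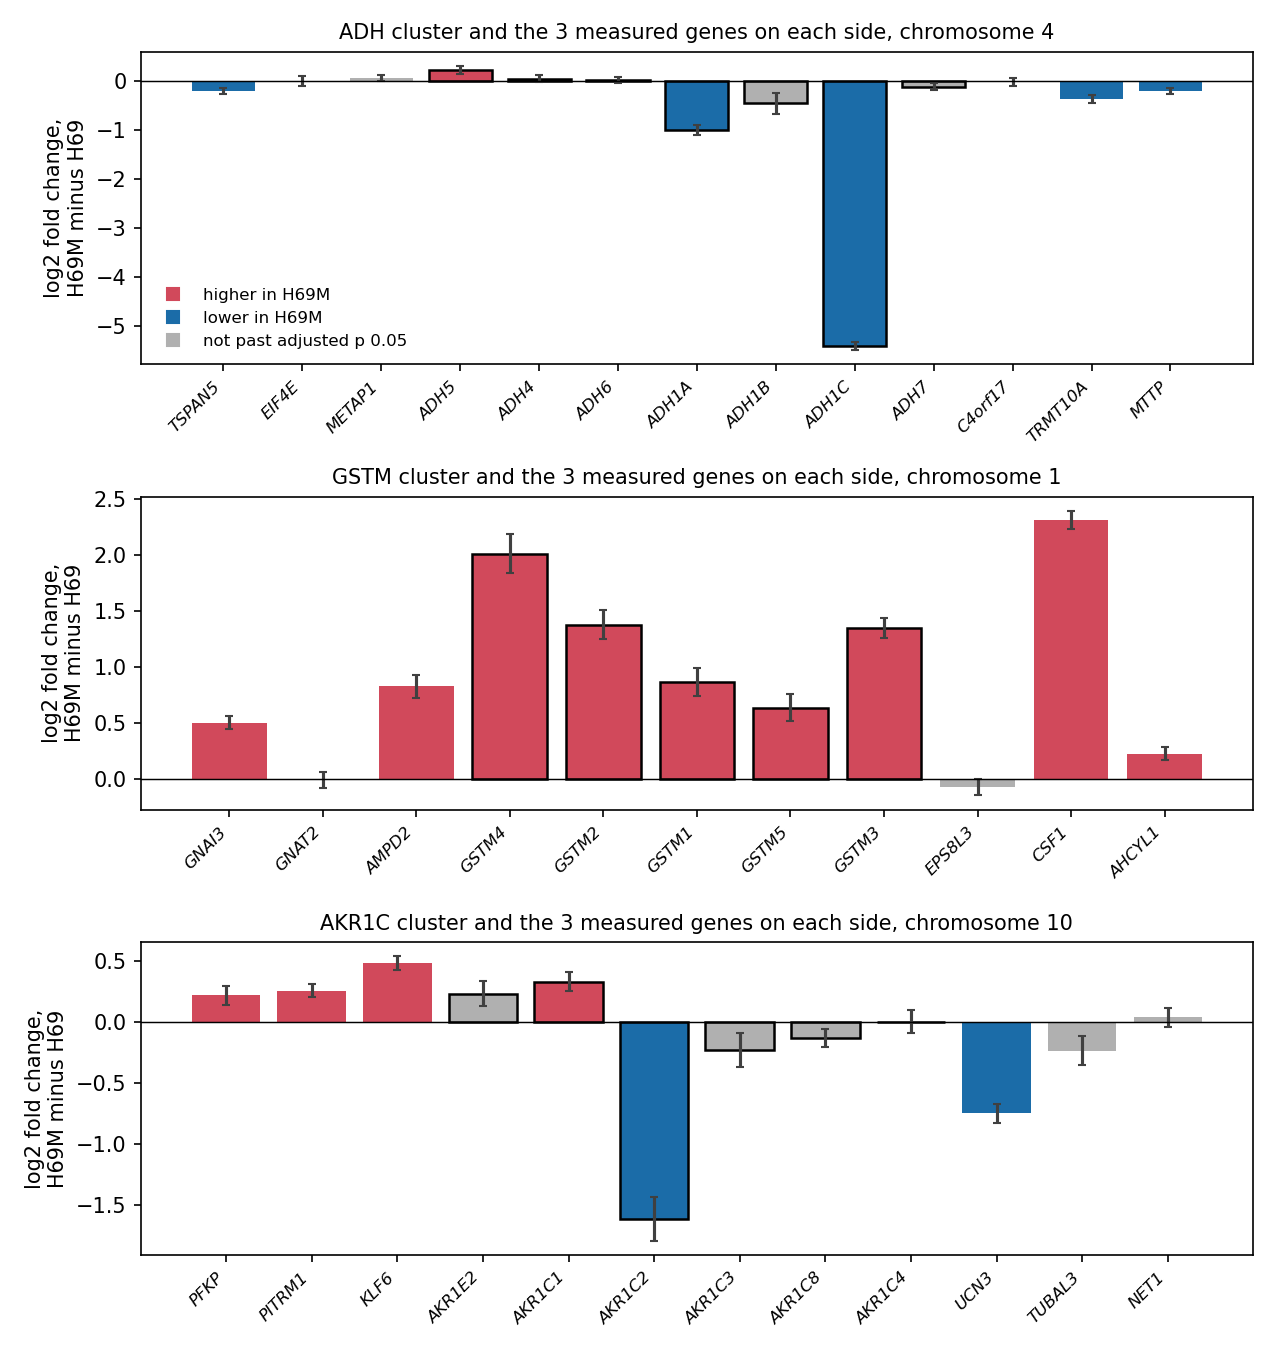
Log2 fold change (H69M minus H69) of the genes in the ADH, GSTM and AKR1C rows on chromosomes 4, 1 and 10, in chromosome order with 3 measured protein-coding genes on each side; black outlines mark the enzyme genes, bars are standard errors and the vertical scales differ. ADH1C stands alone at -5.41, all 5 GSTM genes are above 0, and AKR1C2 at -1.61 lies beside AKR1C1 at 0.33. The second probe set of AKR1C1, which is not drawn, had -0.79.

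The aldehyde dehydrogenases shifted in both directions, and none reached a 2-fold difference. Of 19 genes, 6 were higher and 4 lower in H69M, with a median of -0.0061. The shares were 31.6% and 21.1%, beside 21.0% and 23.2% of all genes. ALDH2, the mitochondrial enzyme that clears acetaldehyde, read 5.80, 5.86 and 5.68 in H69 and 6.65, 6.74 and 6.24 in H69M. All H69M arrays were above all H69 arrays, and the log2 fold change was 0.76 ± 0.13 (limma adjusted p = 0.00177). ALDH3B1, which acts on aldehydes from membrane lipids, was higher by 0.72 ± 0.12 (limma adjusted p = 0.00146). ALDH5A1, which oxidises succinic semialdehyde in the breakdown of the transmitter GABA, was lower, with a change of -0.60 ± 0.11 (limma adjusted p = 0.00331).

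The enzymes that turn retinaldehyde into retinoic acid did not move as a block. ALDH1A3, one of them, read 5.85, 5.76 and 5.99 in H69 and 6.40, 6.35 and 7.06 in H69M. The arrays did not overlap, H69M replicate 3 was the highest, and the change was 0.74 ± 0.18 (limma adjusted p = 0.0109). A second probe set of ALDH1A3 differed by 0.040 and did not pass (limma adjusted p = 0.749 over all probe sets), and the mean of both gave 0.39. ALDH1A1, a cytosolic enzyme also used as a stem cell marker and named here after its values were seen, read 9.86, 9.89 and 9.84 in H69 and 9.65, 9.44 and 9.30 in H69M, a change of -0.40 ± 0.089 (limma adjusted p = 0.00727). Its H69 arrays were tightly grouped and all above the H69M arrays. ALDH1A2, also named after its values were seen, was dim and did not pass at -0.060.

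The other aldehyde dehydrogenases that passed were named after their values were seen. ALDH1B1, a mitochondrial enzyme, was higher by 0.32 (limma adjusted p = 0.00234), and ALDH3A2, which oxidises fatty aldehydes, was lower with -0.32 (limma adjusted p = 0.00508). ALDH1L2, a mitochondrial folate enzyme, was at -0.49 (limma adjusted p = 0.0138), which missed the threshold without H69 replicate 2 (0.0518). ALDH18A1, which makes a proline precursor, was higher by 0.23 (limma adjusted p = 0.0186). It did not hold without replicate 2 (0.0545) or 3 (0.0606) of H69 or replicate 2 (0.0583) or 3 (0.0568) of H69M. ALDH6A1, of valine breakdown, was higher by 0.26 (limma adjusted p = 0.0453), which did not hold without replicate 1 (0.104) or 3 (0.133) of H69 or replicate 1 (0.103) or 2 (0.136) of H69M. The bright genes ALDH7A1 (-0.025) and ALDH9A1 (0.016) did not pass, nor did ALDH3A1 (0.061).

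Among 12 aldo-keto reductases, 1 was higher and 3 lower, and AKR1C2 had the only 2-fold difference. AKR1C2, which reduces potent androgens and other steroids (probe set 7931832), read 7.43, 7.43 and 7.77 in H69 and 6.35, 5.79 and 5.66 in H69M. No arrays overlapped, and H69M replicate 1 was nearest to H69. The means were 7.54 ± 0.20 and 5.93 ± 0.37 (SD, n = 3), a 3.05-fold lower value in H69M with a log2 fold change of -1.61 ± 0.18 (SE, limma adjusted p = 0.000217).

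AKR1C1, which inactivates progesterone and is nearly identical to AKR1C2, gave opposite answers from its 2 probe sets. The probe set with the higher mean (7925918) was higher in H69M by 0.33 ± 0.080 (limma adjusted p = 0.0104). The other (8180376) read 6.56, 6.67 and 6.66 in H69 and 5.83, 5.86 and 5.82 in H69M, a change of -0.79 ± 0.060 (limma adjusted p = 0.000162 over all probe sets). The mean of both gave -0.23 (limma adjusted p = 0.0134). The direction for AKR1C1 therefore depended on the probe set, and the genes of this group may share hybridisation.

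AKR7A3, which reduces aflatoxin aldehydes, had -0.27 (limma adjusted p = 0.0097). AKR1C6P, a pseudogene of the group, had -0.30 (limma adjusted p = 0.0313), which did not hold without replicate 1 (0.105) or 2 (0.105) of H69 or replicate 2 (0.093) or 3 (0.0659) of H69M, or with quantile normalization applied again (0.096). AKR1C3 (-0.22), AKR1C4 (0.0061), AKR1B10 (-0.090) and AKR7A2 (-0.0028) did not pass and were chosen after seeing their values. The AKR1C row lies on chromosome 10. Of its 6 flanking genes, 3 were higher and 1 lower, beside 21.0% and 23.2% of all genes. Their changes ran from -0.75 (UCN3, named after its value was seen) to 0.49.

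Most cytochrome P450 genes were dim, and 38 of 53 did not pass. Of the 53, 3 were higher (5.66%, beside 21.0% of all genes) and 12 lower (22.6%, beside 23.2%), a difference in shares that was not tested, and 35 were below the 25th percentile of level. In the CYP1 family CYP1B1 stood apart. CYP1B1, which oxidises oestradiol and polycyclic hydrocarbons and is a known target of the aryl hydrocarbon receptor AHR (probe set 8051583), read 4.81, 4.82 and 4.03 in H69 and 8.60, 9.08 and 8.59 in H69M. H69 was low throughout, lowest in replicate 3, and every H69M array was high. The means were 4.55 ± 0.45 and 8.76 ± 0.28 (SD, n = 3), an 18.5-fold higher value in H69M with a log2 fold change of 4.21 ± 0.23 (SE, limma adjusted p = 4.10e-06).

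CYP1A1 and CYP1A2, which are known AHR targets too, did not pass. CYP1A1 (probe set 7990391), named after its values were seen, read 4.43, 4.22 and 4.35 in H69 and 4.51, 4.41 and 4.43 in H69M. These arrays overlapped and the change of 0.11 ± 0.071 did not pass (limma adjusted p = 0.234), although it did with the arrays quantile normalized again (0.20, limma adjusted p = 0.0409). CYP1A2, also named after its values were seen, had -0.20 ± 0.072 (limma adjusted p = 0.0525), which passed without H69M replicate 1 (-0.26, limma adjusted p = 0.0257), with array weights (0.0255) and with genes below the 25th percentile left out (0.0355). CYP1B1-AS1, an antisense RNA of the CYP1B1 region with a probe set of its own, was dim in both lines at -0.13 (limma adjusted p = 0.169).

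No CYP2 gene was higher and 5 of 14 were lower (limma, 5 of 14 at an unadjusted p of 0.05). The shares were 0.0% and 35.7%, beside 21.0% and 23.2% of all genes, and the difference was not tested. Mean level was below the 25th percentile for 6 of the 14. CYP2J2, which makes epoxides from arachidonic acid, read 6.50, 6.84 and 6.60 in H69 and 5.74, 5.72 and 5.49 in H69M. Its H69 arrays were all above its H69M arrays, and the change of -0.999 ± 0.11 (limma adjusted p = 0.000153) fell just short of 2-fold. It reached 2-fold without replicate 1 (-1.07) or 3 (-1.02) of H69 or replicate 1 (-1.04) or 2 (-1.03) of H69M. CYP2D6, which clears many medicines, had -0.33 ± 0.066 (limma adjusted p = 0.00418). Its near-identical neighbour CYP2D7, annotated as a transcribed pseudogene, had -0.57 ± 0.054 (limma adjusted p = 8.24e-05), and the pair may share hybridisation. CYP2R1, which starts vitamin D activation, had -0.57 ± 0.20 (limma adjusted p = 0.0476) with overlapping arrays. It did not hold without replicate 1 (0.124) or 2 (0.147) of H69 or replicate 2 (0.101) or 3 (0.124) of H69M, nor with median-centred arrays (0.0516) or quantile normalized again (0.0582). CYP2U1, named after its value was seen, had -0.30 (limma adjusted p = 0.0104). The CYP2B, CYP2C and CYP2E genes of this family that were measured did not pass.

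The main drug-clearing family of the liver, CYP3, was dim, and 0 of 3 genes passed in limma, with 0 at an unadjusted p of 0.05. CYP3A4 had a change of -0.016 and CYP3A5 of -0.078. In the CYP4 family, whose members hydroxylate fatty acids, 0 of 13 genes passed in limma, with 0 at an unadjusted p of 0.05, and all changes lay between -0.16 and 0.075. Among single arrays left out, CYP4F2 passed without H69 replicate 3 (-0.30, limma adjusted p = 0.00876) and CYP4A22 without H69M replicate 3 (0.29, limma adjusted p = 0.0246). In the CYP26 family, which breaks down retinoic acid, 0 of 3 passed in limma, with 0 at an unadjusted p of 0.05. CYP26A1 was at -0.0080, CYP26B1 at 0.038 and CYP26C1 at -0.055.

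The remaining P450 genes, which act mainly on vitamin D, sterols and steroids, held 2 genes higher and 7 lower of 16. The shares were 12.5% and 43.8%, beside 21.0% and 23.2% of all genes, and the difference was not tested. The vitamin D genes differed in opposite directions. CYP24A1, the mitochondrial enzyme that breaks down active vitamin D, read 3.95, 3.93 and 3.63 in H69 and 6.24, 6.12 and 6.14 in H69M. The H69M arrays were all above the H69 arrays and close to each other, though still below the median level over genes, and the change of 2.33 ± 0.095 made it 5.01-fold higher (limma adjusted p = 1.08e-06). CYP27B1, which makes active vitamin D, read 7.24, 7.08 and 7.12 in H69 and 6.67, 6.76 and 6.72 in H69M, a change of -0.43 ± 0.065 (limma adjusted p = 0.00103). These arrays did not overlap, and CYP2R1 from the step before was lower too, with the limits given above.

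Sterol and bile acid enzymes that passed were lower in H69M. CYP7B1, which hydroxylates oxysterols and neurosteroids, read 9.11, 9.17 and 9.07 in H69 and 8.19, 8.09 and 7.96 in H69M, a change of -1.03 ± 0.073 (limma adjusted p = 1.67e-05) that was -0.98 without H69M replicate 3. CYP27A1, of the acidic bile acid pathway, read 7.88, 8.17 and 7.84 against 6.96, 7.13 and 7.16, a change of -0.88 ± 0.10 (limma adjusted p = 0.000246). In both genes every H69 array was above every H69M array. CYP51A1, which removes a methyl group from lanosterol in cholesterol synthesis, had -0.47 ± 0.068 (limma adjusted p = 0.00076).

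CYP46A1, which starts the removal of brain cholesterol and was named after its value was seen, had -0.31 (limma adjusted p = 0.0239), which did not hold without replicate 1 (0.0558) or 3 (0.0528) of H69 or replicate 2 (0.0504) or 3 (0.0661) of H69M. CYP8B1, which shapes the mix of bile acids and was likewise named, had -0.37 (limma adjusted p = 0.0492) and did not hold without replicate 1 (0.0556), 2 (0.152) or 3 (0.0876) of H69 or replicate 2 (-0.24, 0.127) or 3 (0.0687) of H69M. CYP8B1 also failed in limma with median-centred arrays (adjusted p = 0.0574), quantile normalization applied again (0.0915), robust eBayes (0.0501) or the probe set of largest variance (0.0513). The first enzyme of classic bile acid synthesis, CYP7A1, was dim and did not pass at -0.19.

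In steroid synthesis, CYP19A1, the aromatase that makes oestrogens, read 5.99, 5.81 and 5.97 in H69 and 5.13, 4.55 and 4.89 in H69M. Every H69 array was above every H69M array, the H69M arrays were dim, and the change was -1.06 ± 0.14 (limma adjusted p = 0.000456), or -0.91 without H69M replicate 2. The adrenal and gonadal genes CYP11A1 (-0.25) and CYP17A1 (0.00040) did not pass and were chosen after seeing their values. CYP20A1, whose substrate is not known, was the other P450 gene that was higher, by 0.77 ± 0.094 (limma adjusted p = 0.000326).

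All 5 mu class glutathione S-transferase genes were higher in H69M, with changes from 0.64 to 2.01 and a median of 1.35, beside 21.0% of all genes higher. These enzymes attach glutathione to reactive electrophiles. GSTM4 read 5.56, 5.53 and 6.16 in H69 and 7.56, 7.94 and 7.79 in H69M, a change of 2.01 ± 0.18 or 4.03-fold (limma adjusted p = 5.36e-05). H69 replicate 3 was above the other H69 arrays, but well below the lowest H69M array. GSTM2 read 5.49, 5.61 and 5.59 against 6.91, 7.23 and 6.68, a change of 1.38 ± 0.13 (limma adjusted p = 8.06e-05). GSTM3, known from testis and brain, read 5.36, 5.23 and 5.17 against 6.43, 6.68 and 6.69, a change of 1.35 ± 0.091 (limma adjusted p = 1.33e-05).

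For GSTM2 and GSTM3 every H69M array was above every H69 array. GSTM1 (0.87 ± 0.13, limma adjusted p = 0.000919, or 1.01 without H69M replicate 1) and GSTM5 (0.64 ± 0.12, limma adjusted p = 0.00352) were dim in both lines. GSTM1, GSTM2, GSTM4 and GSTM5 are close copies of each other, and their probe sets may share hybridisation. The row lies on chromosome 1, and 4 of its 6 flanking genes were higher and 0 lower (limma, 4 at an unadjusted p of 0.05). Over all genes the shares were 21.0% and 23.2%, and a difference from them was not tested. Flanking genes named after their values were seen were CSF1 (2.31), which encodes a macrophage growth factor, AMPD2 (0.83), GNAI3 (0.50) and EPS8L3 (-0.072, not past).

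The start regions of GSTM4 and GSTM3 are shown because the GSTM genes were higher together and these windows hold a searched motif, the core bound by AHR. The sequences are RefSeq windows of build GRCh38.p14, 5′ to 3′ on the gene's strand, 250 bases before and 50 after the start site, which counts as base 1. Capitals mark the core GCGTG of the xenobiotic response element, or CACGC where it lies on the opposite strand. GSTM4 is at chr1:109655849-109656148 on the plus strand, with the core at -93, and GSTM3 at chr1:109740989-109741288 on the minus strand, with the core at -127.
GSTM4: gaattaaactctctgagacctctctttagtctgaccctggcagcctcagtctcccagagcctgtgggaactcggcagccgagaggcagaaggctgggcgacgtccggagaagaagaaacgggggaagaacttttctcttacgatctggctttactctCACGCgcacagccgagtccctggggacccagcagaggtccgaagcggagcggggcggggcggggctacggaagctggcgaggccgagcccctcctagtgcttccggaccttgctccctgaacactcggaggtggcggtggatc
GSTM3: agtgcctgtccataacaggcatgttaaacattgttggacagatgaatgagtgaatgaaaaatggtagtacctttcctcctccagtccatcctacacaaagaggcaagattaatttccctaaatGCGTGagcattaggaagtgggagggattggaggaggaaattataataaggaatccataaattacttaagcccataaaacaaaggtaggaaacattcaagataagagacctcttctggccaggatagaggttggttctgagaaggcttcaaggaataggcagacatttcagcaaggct
The core, searched on both strands, was found in 36.5% of all 35116 promoter windows and in 28 of the 108 windows of enzyme genes (25.9%), with 83 of the 116 genes matched by gene ID; the GSTM5 window also holds it, and those of GSTM1 and GSTM2 do not. The windows of GSTM1 and GSTM5 hold another searched motif, the antioxidant response element TGACNNNGC, found in 13.3% of all windows. No GSTM window holds the AP-1 site TGACTCA, which was searched too. A match is a description of the letters and not a measured binding site.

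Other glutathione S-transferases gave smaller or opposite changes. Of the 16 cytosolic and mitochondrial genes, 7 were higher and 2 lower (43.8% and 12.5%, beside 21.0% and 23.2% of all genes). GSTO2, the omega class enzyme that recycles vitamin C, read 7.55, 7.51 and 7.32 in H69 and 6.47, 6.15 and 6.34 in H69M. Its arrays did not overlap, and the change was -1.13 ± 0.098 (limma adjusted p = 5.04e-05), while its neighbour GSTO1, named after its value was seen, did not pass at -0.10. GSTA4, which detoxifies hydroxynonenal from lipid peroxidation, had -0.48 ± 0.065 (limma adjusted p = 0.000568), and the other 4 alpha class genes were dim and did not pass. Of these, GSTA2 (0.14) passed without H69M replicate 3 (0.21, limma adjusted p = 0.0487) and with quantile normalization applied again (0.23, limma adjusted p = 0.0308).

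GSTK1, of mitochondria and peroxisomes, was higher by 0.42 ± 0.056 (limma adjusted p = 0.000474). GSTP1, the pi class enzyme often studied in drug resistance and named after its values were seen, read 12.03, 12.03 and 12.02 in H69 and 12.19, 12.32 and 12.32 in H69M. H69M was higher on every array, but the change was only 0.25 ± 0.060 (limma adjusted p = 0.0101). GSTT1 (0.068) and the pseudogene GSTM2P1 (-0.0062) did not pass.

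Of the 3 microsomal glutathione S-transferases, 0 were higher and 2 lower, beside 21.0% and 23.2% of all genes. MGST1, a membrane enzyme that also reduces lipid peroxides, read 11.00, 11.13 and 11.02 in H69 and 10.49, 10.46 and 10.09 in H69M. The H69 arrays were all higher, H69M replicate 3 was the lowest, and the change was -0.70 ± 0.11 (limma adjusted p = 0.00109). MGST2, which can make leukotriene C, had -0.43 ± 0.058 (limma adjusted p = 0.000592), and MGST3 did not pass at -0.0040. Among the UGT2 genes, which add glucuronic acid to steroids and drugs, 0 of 6 passed in limma, with 1 at an unadjusted p of 0.05. All were dim, with changes from -0.23 to 0.23, and UGT2B17 passed without H69 replicate 3 (0.33, limma adjusted p = 0.0131) and with quantile normalization applied again (0.28, limma adjusted p = 0.0442).

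Genes that work with these enzymes were read from 5 lists, which were chosen with earlier results of these data known. A list share above that of all genes is therefore no independent finding. Of 107 measured genes, 37 were higher and 21 lower, beside 21.0% and 23.2% of all genes. Among 15 P450 partners and xenobiotic receptors, 6 were higher and 4 lower, with a median of 0.14. AHR, the receptor that switches on CYP1 genes, read 6.13, 6.20 and 6.31 in H69 and 9.23, 9.44 and 9.75 in H69M, a change of 3.26 ± 0.13 or 9.57-fold (limma adjusted p = 8.10e-07). All H69M arrays were far above the H69 arrays, as for CYP1B1 and unlike CYP1A1. The partner of AHR, ARNT (0.32, limma adjusted p = 0.00528), was higher. The AHR target TIPARP (0.26, limma adjusted p = 0.0542) did not pass. Its arrays did not overlap, which was so for 55.8% of all genes. TIPARP passed under 7 alternatives, with a limma adjusted p = 0.0189 without H69M replicate 1 (0.34) and 0.0463 with the arrays centred. The electron donor POR of microsomal P450 enzymes (-0.031, limma adjusted p = 0.705) did not pass. These 3 were named after their values were seen. In the cytochrome b5 system, which also passes electrons to P450 enzymes, 3 of 6 genes were lower and 2 higher. CYB5R4 (-0.56), CYB5A (-0.52) and CYB5R1 (-0.37) were lower and CYB5R2 (0.48) and CYB5R3 (0.44) higher, with limma adjusted p values up to 0.00379, and CYB5B (0.045) did not pass. CYB5R1, CYB5R3 and CYB5B were named after their values were seen.

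In the list of the NRF2 response and glutathione supply, 9 of 22 genes were higher and 1 lower, with a median of 0.12. The shares were 40.9% and 4.55%, beside 21.0% and 23.2% of all genes. Of the 22, 16 were at or above the median level, where 26.3% of all genes were higher and 30.4% lower. The difference in shares was not tested. ME1, the cytosolic malic enzyme that makes NADPH, read 4.42, 4.25 and 4.38 in H69 and 7.88, 8.14 and 7.95 in H69M. The lines were far apart, and the change was 3.64 ± 0.084 or 12.5-fold (limma adjusted p = 8.83e-08). The exporter of conjugates ABCC3 (1.45 ± 0.094), haem oxygenase HMOX1 (1.29 ± 0.11) and the quinone reductase NQO1 (1.10 ± 0.070) were higher as well, with limma adjusted p values up to 4.89e-05. Others were named after their values were seen. The glutamate-cysteine ligase subunit GCLM was higher (0.55, limma adjusted p = 0.00019), while its catalytic partner GCLC (-0.34, limma adjusted p = 0.0681), NFE2L2, which encodes NRF2 itself (0.0091, limma adjusted p = 0.918), and its inhibitor KEAP1 (-0.064) did not pass. GCLC passed without H69M replicate 2 (-0.48, limma adjusted p = 0.0103), with eBayes trend (0.0394) and when fitted on the brighter part of the genes alone, at or above the median (0.0366). The cystine carrier SLC7A11 was lower (-0.51, limma adjusted p = 0.0174), which did not hold without replicate 1 (0.0513) or 2 (0.053) of H69 or replicate 2 (0.0576) of H69M.

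The start region of ME1 is shown because ME1 had the largest change of that list and its window holds matches to all 3 motifs searched. It lies at chr6:83431002-83431301 on the minus strand of GRCh38.p14, from RefSeq, in the same frame as above. Capitals mark the antioxidant response element TGACNNNGC at -137, where the AP-1 site TGACTCA lies inside it, its opposite-strand form at base 12, and the xenobiotic core as CACGC at -164 and -51.
ME1: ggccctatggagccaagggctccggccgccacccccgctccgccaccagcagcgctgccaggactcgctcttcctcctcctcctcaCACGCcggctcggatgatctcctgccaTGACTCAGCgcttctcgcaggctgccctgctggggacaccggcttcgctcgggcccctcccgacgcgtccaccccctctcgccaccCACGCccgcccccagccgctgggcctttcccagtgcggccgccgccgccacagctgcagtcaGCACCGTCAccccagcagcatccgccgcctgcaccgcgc
TGACNNNGC, searched on both strands, occurred in 13.3% of all promoter windows and 13.0% of the enzyme gene windows, and TGACTCA in 4.95% and 4.63%.

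The other lists were mixed. Among 22 other oxidation, reduction and hydrolysis enzymes, 6 were higher and 4 lower, with a median of 0.069. The shares were 27.3% and 18.2%, beside 21.0% and 23.2% of all genes. The quinone reductase NQO2 was higher by 2.84 ± 0.13 (limma adjusted p = 1.71e-06) and the lactonase PON3 was lower, with a change of -3.01 ± 0.12 (limma adjusted p = 9.89e-07). Aldehyde oxidase AOX1 (0.77) was higher and PON1 (-0.73) lower, both dim and with limma adjusted p values up to 0.0018. Among 25 other conjugation enzymes, 10 were higher (40.0%) and 5 lower (20.0%), with a median of 0.055. PAPSS2, which makes the sulfate donor, rose by 2.58 ± 0.15, the sulfotransferase SULT1B1 by 1.98 ± 0.10, the methyltransferase NNMT by 1.89 ± 0.14 and UGDH, which makes the glucuronic acid donor, by 1.65 ± 0.081 (limma adjusted p values up to 1.90e-05). UGDH was higher while the UGT2 genes that use its product were dim in both lines.

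Among 23 genes of retinoid handling and response, 6 were higher and 7 lower, with a median of -0.11. The shares were 26.1% and 30.4%, beside 21.0% and 23.2% of all genes. The retinoic acid carrier CRABP2 rose by 4.90 ± 0.17 (limma adjusted p = 4.63e-07), the retinoid-responsive transglutaminase TGM2 by 3.23 ± 0.092 and the receptor RARG by 1.47 ± 0.13 (limma adjusted p values up to 6.89e-05). RXRG, a partner receptor, was lower, with a change of -4.11 ± 0.14 (limma adjusted p = 5.16e-07). The other partner receptors, named after their values were seen, went both ways. RXRA was higher (1.04, limma adjusted p = 1.76e-05) and RXRB lower (-0.34, limma adjusted p = 0.00405). Beside them, ADH1C (-5.41) and ALDH1A1 (-0.40), which can act in retinoic acid synthesis, were lower, ALDH1A3 (0.74) was higher by 1 of its probe sets, and the CYP26 genes did not pass.

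**Figure D4:**
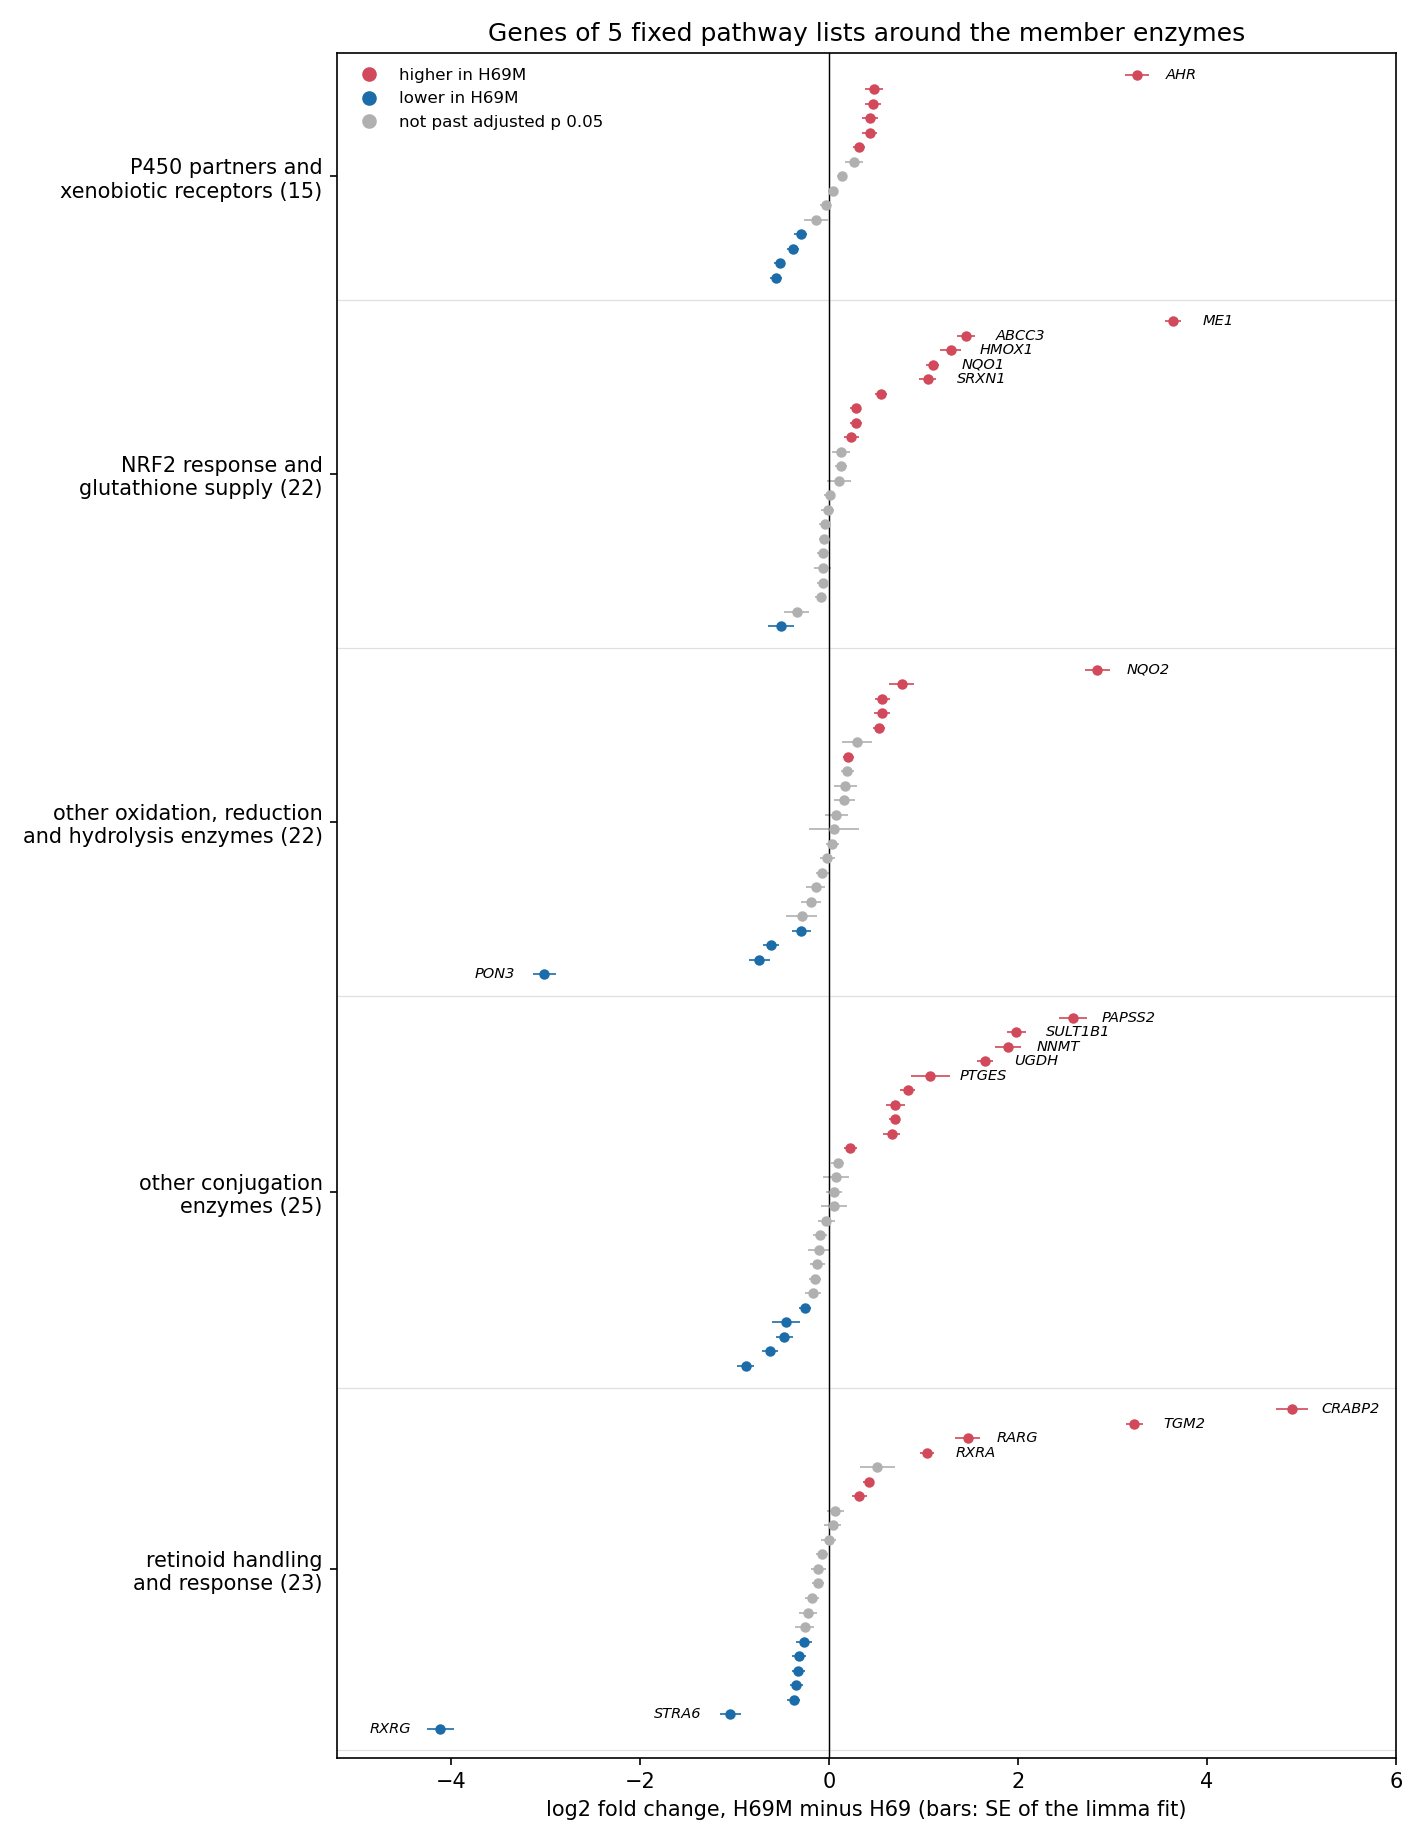
Log2 fold change (H69M minus H69) of the genes in 5 lists around the enzymes, with the number measured in brackets; bars are standard errors of the limma fit and colours mark genes higher, lower or not past an adjusted p of 0.05. Genes at least 2-fold different carry their names, with AHR at 3.26, ME1 at 3.64 and CRABP2 at 4.90 highest in their lists and PON3 at -3.01 and RXRG at -4.11 lowest. The lists were chosen with earlier results of these data known.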

How the data were processed

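Gene expression was measured on 6 arrays, 3 each of H69 and H69M. The authors deposited log2 values for 32321 probe sets, made with RMA per the submitters' processing notes, which also name limma. Which software ran RMA, and on which genome build, is not given in the sources used here. RMA usually corrects background, quantile normalizes and summarises probes by median polish.

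The platform annotation gave 1 symbol to 19158 probe sets, several to 1388 and none to 11775. Of the former, 19128 matched the reference gene table by Entrez ID. For each of 18404 genes the probe set with the highest mean was used. H69M was compared with H69 by lmFit and eBayes of limma 3.58.1 (R 4.3.3, two-sided, group as the only term), on the deposited log2 values with no further normalization. P-values were Benjamini-Hochberg adjusted over all genes. The median standard error over the enzyme genes was 0.0897, and the number of arrays limits the precision. Python 3.11.15, numpy 2.4.6, pandas 2.3.3 and matplotlib 3.10.9 were used for counts and plots. The code was tested on simulated arrays with 200 of 18404 genes changed, far fewer than the 8140 called here. It recovered 80% of changes of 0.5 and 100% of changes of 1.0 in log2, with 10 false calls. That checks the code and not the calls made here.

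The enzyme genes and gene lists were chosen with earlier results of these data known. Named were enzyme genes at least 2-fold different, up to 4 further called genes per family, and up to 4 called genes per list; all other genes in the text, those that did not pass included, were named after their values were seen. The 16 alternatives were a replicate block, 2 other normalizations, 2 filters on dim genes, 2 other variance moderations, array weights, 2 other probe set rules and each array left out. Promoters came from RefSeq (GRCh38.p14).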

Additional observations from a re-analysis of the deposited data

Results flagged for a closer look

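The comparison used 1 probe set per gene with a single symbol, and some probe sets left out of it also differed between the lines. Of 16 probe sets that list several symbols, at least 1 of them an enzyme gene's, 4 passed limma's adjusted p threshold over all 32321 probe sets, and all 4 were lower in H69M. Their log2 fold changes were -2.62 (probe set 8045210), -1.63 (8055214), -0.91 (8074962) and -0.36 (8179440), and no gene is named from them. Of 5 second probe sets of enzyme genes, 3 passed. The second probe set of ALDH6A1 (7980096) had 0.24 and that of CYP51A1 (8140864) -0.65, the same directions as the probe sets used. The second probe set of AKR1C1 (8180376) had -0.79, opposite to the probe set used.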

How the results depend on the processing

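Of the 43 enzyme genes called, 34 kept call and direction under every one of the 16 alternatives that tested them, 8 lost the call under at least 1, and AKR1C1 turned, with -0.23 for the mean of its probe sets and -0.79 for the one with the largest variance. Of the genes not past the threshold, 10 passed under at least 1. The 11 genes at least 2-fold different kept their adjusted p calls under every alternative that tested them. Their 2-fold size was not always kept: ADH1A (-0.91), CYP7B1 (-0.98) and CYP19A1 (-0.91) fell short of it under at least 1 alternative. Leaving out genes below the median level left 24 enzyme genes, with 7 higher and 10 lower, and 0 and 2 of them at least 2-fold (0 of the 5 higher ones was tested there), and 24 of 57 list genes higher; fewer genes were tested. Quantile normalization applied again gave 22 higher and 22 lower. Leaving out 1 array gave 15 to 19 higher, 21 to 26 lower, 5 to 6 and 4 to 7 at least 2-fold higher and lower, and 34 to 38 and 16 to 24 list genes higher and lower. Same-numbered arrays of the 2 lines deviated with correlations of 0.021, 0.0072 and 0.0099, so the numbers do not pair them; with the replicate number as a block, 17 enzyme genes were higher and 24 lower, 5 and 6 at least 2-fold, and 35 and 20 list genes; among the enzyme genes ADH5 (limma adjusted p = 0.0789) and CYP8B1 (0.0859) lost their calls, and the list gene GCLC passed (0.0249). Dim genes limit what can be read, since RMA compresses their folds.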
